A study of Mus musculus with 2 samples.

Results

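The genes described here are the neighbors of *Fgf8* on mouse chromosome 19: every gene of the deposited expression table whose locus starts between 43.5 and 46.5 Mb on mm10, with *Fgf8*, *Pax2*, *Wnt8b*, *Sema4g*, *Mrpl43* and *Ndufb8* left out. The window spans 3 Mb and the rule left 59 genes of the 24340 in the table, 50 of them protein coding, 6 long noncoding RNA genes and 3 microRNA genes. They were chosen by position, and the genes left out by name, so the rule used no expression value. RNA was measured in trunk tissue of mouse embryos at E8.5, freed by dissection of the head, heart and caudal progenitor zone, in 1 wild-type sample and 1 *Aldh1a2*-/- sample. The *Aldh1a2*-/- embryos lack the gene by a knockout (also called *Raldh2*) in all their cells and came from matings of heterozygous parents; wild-type and mutant embryos share the stage and the dissection, and no agent was given. With 1 library per genotype there is no spread between replicates, no test was possible, and every difference below is a difference between 2 libraries. The labels list 1 sample per genotype, whereas the study's methods describe 2 trunks of each, so the sample may be a pool.

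*Aldh1a2* encodes the enzyme that makes retinoic acid (RA) in trunk mesoderm, and RA acts through nuclear receptors that sit on RA response elements (RAREs), direct repeats of a 6-base half-site. *Fgf8* encodes a fibroblast growth factor of the caudal progenitor zone and is a well known target that RA represses, so its neighborhood bears on the question of whether a change at one gene is seen alone or together with changes along the chromosome. Genes that lie in the same topologically associated domain (TAD), a stretch of chromosome that folds mainly on itself, can come under the same enhancers or silencers.

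The RAREs that the study lists for *Fgf8* are shown here because the study's list of *Fgf8* neighbors stands beside them. Capitals mark the half-sites and lower case the spacer; the strand is not given in the source and was not checked. All lie on chromosome 19 of mm10.
DR2 RARE at chr19:45747043-45747056: GGGTCAgcAGTTCA
DR2 RARE at chr19:45743342-45743355: AGGTCTctGGGTCG
DR1 RARE at chr19:45735030-45735042: AGGGCAgAGGCCA

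*Fgf8* is transcribed from the minus strand (45736491 to 45742941), so genes at lower coordinates lie beyond its 3′ end. The first element stands 4102 bases upstream of the *Fgf8* start and only 678 bases beyond the 3′ end of *Npm3*, a member of the neighborhood. The second lies 401 bases upstream of *Fgf8*, and the third 1449 bases past its 3′ end. *Fgf8* itself, the gene on which the window is built, was at 0.864 FPKM in the wild-type library and 32.6 FPKM in the mutant (fragments per kilobase of transcript, scaled to the library total).

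A few facts of the libraries bear on all values. *Aldh1a2* was at 128 FPKM in the wild-type library and 11.7 FPKM in the mutant. The steps between the lowest FPKM values gave an approximate depth of 28100000 and 29100000 fragments, so 0.5 FPKM in a 2-kb transcript is about 28.1 and 29.1 fragments. Of 5 somite and trunk markers, 4 were above 0.5 FPKM in both libraries and all 4 were lower in *Aldh1a2*-/-; the list summed to 313 FPKM in the wild-type library and 46.6 FPKM in the mutant. All 5 markers of the removed head were listed at 0 in both libraries. The 5 heart markers summed to 8.89 and 32.1 FPKM, most of it from *Tnnt2* (8.82 and 29.8 FPKM). *Myl7* was at 0 and 2.36 FPKM, *Myh6* at 0.074 and 0 FPKM, and *Myl2* and *Nkx2-5* at 0 in both. Yolk sac visceral endoderm markers summed to 376 FPKM in the wild-type library and 4419 FPKM in the mutant, 5 of 5 higher, and the 4 red blood cell markers above 0.5 FPKM in both libraries summed to 298 and 5742 FPKM, all 4 higher. Endothelial markers summed to 45.7 and 77.6 FPKM, 3 of 5 higher. Limb and lateral plate markers summed to 103 and 141 FPKM, with 1 higher and 1 lower of 3 measured. *Hand2* was at 46.5 FPKM in the wild-type library and 98.4 FPKM in the mutant, *Foxf1* at 32.4 and 32.5 FPKM and *Osr1* at 19.9 and 10.1 FPKM. *Tbx5*, not measured, was at 3.73 and 0.177 FPKM. The part of these other tissues in the values below was not tested, and in pieces of tissue fewer cells of a type and less RNA per cell cannot be told apart.

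A gene was called measured when it was above 0.5 FPKM in both libraries, and higher or lower in *Aldh1a2*-/- when the log2 of its mutant FPKM divided by its wild-type FPKM was above 0.85 or below -0.85, the study's limits. Of the 59 neighbors, 30 were measured: 11 were higher in *Aldh1a2*-/-, 3 were lower and 16 lay within the limits. Over the whole series 23.6% of the 9506 measured genes were higher and 22% were lower. In the neighborhood 36.7% were higher, and the share past either limit, 46.7%, was close to the 45.6% of all genes. The median log2 ratio of the 30 neighbors was 0.46 (1.38-fold), against 0.02 over all measured genes. Genes past a limit were thus about as frequent among the neighbors as elsewhere, and 11 of the 14 were on the side of *Fgf8*. With limits of -1 and 1, 7 of the 30 were higher and 3 lower. By those limits 20.4% of all measured genes were higher and 19.1% lower.

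**Figure D1:**
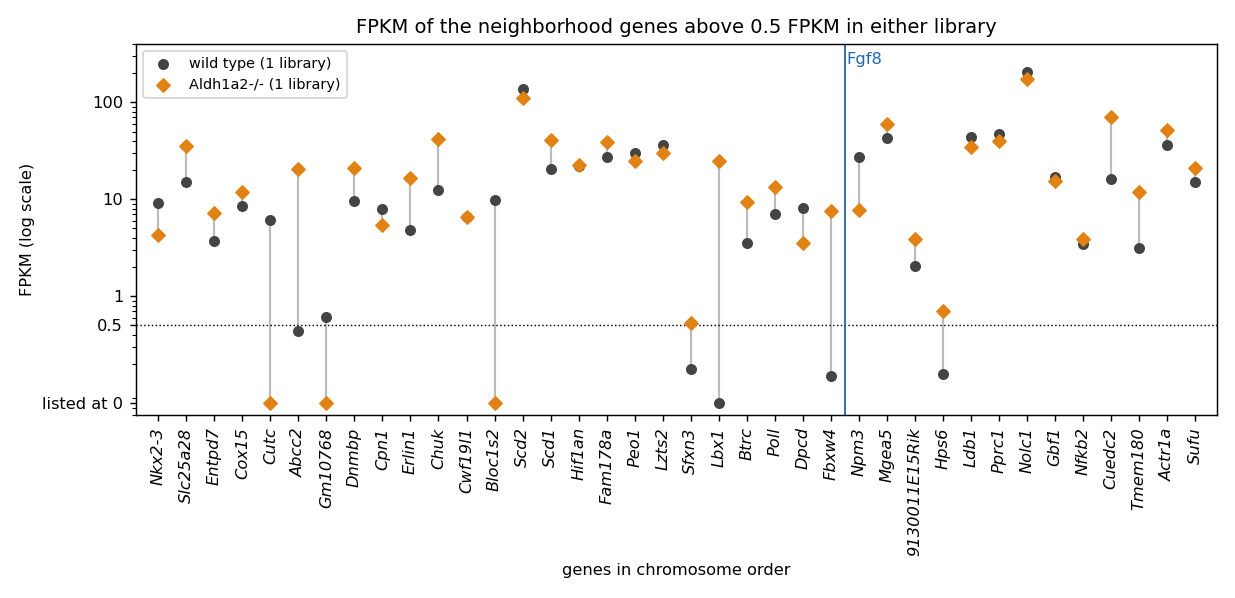
FPKM (log scale) of the 38 neighborhood genes above 0.5 FPKM in either library, in chromosome order, with wild type as circles, *Aldh1a2*-/- as diamonds, the dotted line at 0.5 FPKM and the vertical line at the place of *Fgf8*. The widest gaps belong to genes near or at 0 in one library (*Cutc*, *Abcc2*, *Bloc1s2*, *Lbx1*, *Fbxw4*), and the most abundant neighbors, *Nolc1* and *Scd2*, differ little.

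The measured neighbors ran from -1.79 (*Npm3*) to 2.14 (*Cuedc2*) on the log2 scale. No neighbor lay near the limits from inside: the last gene within them was *Cpn1* at -0.54, and the first gene beyond was *9130011E15Rik* (*Armh3*) at 0.90. Of the 30 ratios, 18 were positive and 12 negative (20 and 10 on the TPM scale). Wild-type levels ran from 2.07 to 204 FPKM with a median of 15.2, and *Aldh1a2*-/- levels from 3.51 to 173 FPKM with a median of 21.1. A 95% exact binomial (Clopper-Pearson) interval of each ratio was computed from the estimated fragments; it covers counting error only, and reads copied by PCR are not independent molecules. For 13 of the 14 genes past the limits an interval could be had. All 13 intervals lay on one side of 0, as did those of 12 of the 16 genes within the limits, and 9 of the 13 lay wholly past the limit. The intervals hold nothing of the differences between embryos.

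Of 8 signaling regulators in the neighborhood, 6 were measured, 4 were higher and none lower, with a median log2 ratio of 1.29. Over all measured genes 23.6% were higher and 22% lower, and these shares stand beside every list below as well. The lists were chosen with earlier results of these data known, so their counts are a description only. *Kazald1* and *Psd* were listed at 0 in both libraries. *Chuk*, which encodes the IKKα kinase of the NF-κB pathway (44073334 to 44107505, minus strand), was at 12.5 FPKM in the wild-type library and 41.5 FPKM in the mutant, a 3.33-fold difference (log2 ratio 1.73, counting interval 1.54 to 1.93). *Btrc*, which encodes the β-TrCP subunit of a ubiquitin ligase that marks β-catenin and IκB for degradation (45363688 to 45533343, plus strand), was at 3.50 and 9.46 FPKM (log2 ratio 1.44, counting interval 1.21 to 1.66). *Cuedc2*, a ubiquitin-binding protein linked to IKK activity (46329812 to 46338672, minus strand), had the highest ratio of all, at 16.01 and 70.4 FPKM, 4.40-fold (log2 ratio 2.14, counting interval 1.98 to 2.30). *Dnmbp*, also called Tuba, activates the small GTPase Cdc42 (43846815 to 43940232, minus strand) and was at 9.54 and 21.2 FPKM. Its log2 ratio was 1.15.

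*Btrc* was also the only one measured of 3 ubiquitin ligase subunits, with *Fbxl15* at 0 in both libraries and *Fbxw4* given below. The other regulators did not pass the limits. *Sufu*, the suppressor of Hedgehog signaling that holds back the Gli factors, was at 15.2 FPKM in the wild-type library and 20.95 FPKM in the mutant (log2 ratio 0.47). *Lzts2*, a protein that moves β-catenin out of the nucleus, was at 35.9 and 29.8 FPKM (log2 ratio -0.27). *Nfkb2*, a subunit of NF-κB itself and a target of the noncanonical IKKα pathway, was counted with the transcription factors below. It was at 3.48 and 3.90 FPKM (log2 ratio 0.17). *Cuedc2* shares a locus entry and a stretch of its body with *Fbxl15*, which was listed at 0 in both libraries. The study's methods name a stranded library kit. Whether the strand was used in counting is not given in the sources used here. Without it, reads of overlapping genes cannot be told apart.

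Of 7 transcription factors and cofactors, 4 were measured, 1 was lower and none was higher, and their median log2 ratio was -0.28. *Nkx2-3*, a homeobox gene of gut mesoderm and spleen (43612325 to 43615892, plus strand), was at 9.09 FPKM in the wild-type library and 4.33 FPKM in the mutant, 2.10-fold lower (log2 ratio -1.07, counting interval -1.29 to -0.86). *Ldb1*, the LIM domain binding cofactor, was at 44.1 and 34.7 FPKM, and *Pprc1*, a coactivator of nuclear genes for mitochondria, at 46.7 and 40.0 FPKM, both within the limits. *Tlx1* and *Pitx3*, homeobox genes of spleen and of lens and midbrain neurons, were listed at 0 in both libraries.

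*Lbx1*, a homeobox gene of dorsal spinal cord interneurons and of muscle precursors that migrate to the limb (45232684 to 45236841, minus strand), was at 25.1 FPKM in the mutant and listed at 0 in the wild-type library. No other neighbor had a mutant value above 0.5 FPKM with a wild-type 0, so the count was 1 of the 38 genes above 0.5 FPKM in either library. Over the whole series it was 5.21% of 12354 such genes. The deposited status of *Lbx1* was OK. An exact 0 in a table without counts can still be a failed estimate, which was not tested, so no fold is given.

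**Figure D2:**
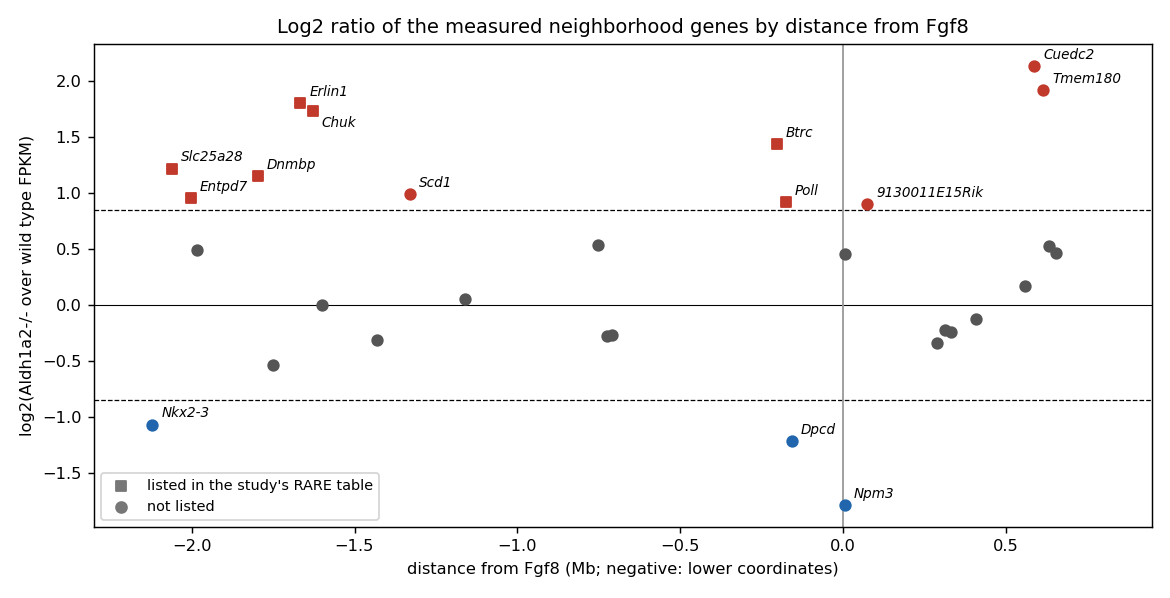
Log2 ratio (mutant over wild type FPKM) of the 30 measured neighbors against their distance from *Fgf8* in Mb, with dashed lines at the limits of 0.85 and -0.85, red for higher, blue for lower and grey for within, and squares for genes listed in the study's RARE table. Higher genes stand at both ends and near the middle, and *Npm3* is the lowest and lies 4.79 kb from *Fgf8*. Every square is red, a direction set by how the study chose the genes of its table.

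The genes nearest to *Fgf8* differed in direction. *Npm3*, a histone chaperone of the nucleophosmin family (45747734 to 45749565, minus strand), lies 4.79 kb upstream of *Fgf8* and was at 27.0 FPKM in the wild-type library and 7.82 FPKM in the mutant, 3.45-fold lower (log2 ratio -1.79, counting interval -2.04 to -1.55). It had the lowest ratio of the neighborhood, and *Fgf8* the opposite sign. *Mgea5* (*Oga*), which removes O-GlcNAc sugar from proteins, lies 7.31 kb from *Fgf8* and was at 43.0 and 59.1 FPKM (log2 ratio 0.46). *Kcnip2*, a potassium channel subunit 49.4 kb away, was listed at 0 in both libraries. *9130011E15Rik* (*Armh3*, 74.4 kb away) was at 2.07 FPKM in the wild-type library and 3.85 FPKM in the mutant (log2 ratio 0.90), and a pseudocount of 0.5 ended its call.

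On the side of lower coordinates the nearest member, the long noncoding RNA gene *4933429K18Rik*, 5.93 kb beyond *Fgf8*, was listed at 0 in both libraries. *Fbxw4*, an F-box subunit of a ubiquitin ligase 76.0 kb away, was at 0.152 FPKM in the wild-type library and 7.52 FPKM in the mutant. *Dpcd*, a gene linked to cilia, was at 8.17 and 3.51 FPKM, 2.33-fold lower (log2 ratio -1.22). Their bodies overlap at their 3′ ends on opposite strands and the table gives them 1 joint locus, so the split of fragments between them is uncertain. *Poll*, which encodes DNA polymerase lambda (45552275 to 45560564, minus strand), was at 7.05 and 13.3 FPKM (log2 ratio 0.92, counting interval 0.76 to 1.08), and scaling to the upper quartile ended its call.

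The study's RARE table lists genes of the *Fgf8* TAD only where their expression changed in the mutant. It places them beside elements held to silence genes that RA represses. For the element 4102 bases upstream of *Fgf8* the study cites an earlier knockout that raised caudal *Fgf8*. It calls the other *Fgf8* elements candidates. The 7 listed genes that are members, *Poll*, *Btrc*, *Chuk*, *Erlin1*, *Dnmbp*, *Entpd7* and *Slc25a28*, were all higher in *Aldh1a2*-/-. That list was drawn up by the study with these samples in hand. Its direction was thus set by the choice and is not independent evidence. All 7 lie at lower coordinates than *Fgf8*. The 23 measured neighbors that it does not list had 4 higher and 3 lower genes and a median log2 ratio of -0.0052. That remainder follows from the same choice, since leaving out the list takes away 7 higher genes, and it is a description only. The study took its TADs from mouse embryonic stem cells, and the window here was not drawn to them. A gene can thus also be unlisted because it lies outside the TAD. *Erlin1*, an endoplasmic reticulum protein that acts on the IP3 receptor (44034943 to 44070164, minus strand), was at 4.77 FPKM in the wild-type library and 16.7 FPKM in the mutant, 3.49-fold higher (log2 ratio 1.80, counting interval 1.46 to 2.16). *Slc25a28*, mitoferrin-2, which carries iron into mitochondria (43663801 to 43675006, minus strand), was at 15.2 and 35.3 FPKM (log2 ratio 1.22). *Entpd7*, a nucleotidase (43689689 to 43733853, plus strand), was at 3.74 and 7.24 FPKM (log2 ratio 0.95), and its 3′ end overlaps that of *Cox15*.

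The 4 higher genes that are not listed were *Scd1*, *9130011E15Rik*, *Cuedc2* and *Tmem180* (*Mfsd13a*). *Tmem180*, a membrane protein of the transporter superfamily (46356877 to 46375254, plus strand), was at 3.12 FPKM in the wild-type library and 11.8 FPKM in the mutant, 3.78-fold higher (log2 ratio 1.92). *Cuedc2* and *Tmem180*, the genes with the highest ratios of the neighborhood, lie 587 and 614 kb on the other side of *Fgf8*.

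By distance from *Fgf8* the ratios had no steady course. Within 0.25 Mb 6 genes were measured, 3 higher and 2 lower, with a median log2 ratio of 0.68. From 0.25 to 0.5 Mb there were 4, *Ldb1*, *Pprc1*, *Nolc1* and *Gbf1*, all within the limits, with ratios between -0.35 and -0.13; on the TPM scale that of *Gbf1* was 0.026. From 0.5 to 1 Mb there were 8, 2 higher and none lower, and beyond 1 Mb 12, 6 higher and 1 lower. Over the 30 genes, neighbors on 1 chromosome in the same 2 libraries, Spearman's rho of the log2 ratio with distance was 0.19 and Pearson's r 0.19. The genes at lower coordinates than *Fgf8* had 8 of 18 higher and 2 lower (median log2 ratio 0.51), and those at higher coordinates 3 of 12 higher and 1 lower (median 0.31). Within 0.5 Mb of *Fgf8* on both sides together the median of the 10 measured genes had the opposite sign, -0.18. That set takes in the 4 genes from 0.25 to 0.5 Mb, whose median was -0.23.

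The adjoining stretches of the chromosome were counted in the same way. In the next 3 Mb at lower coordinates (from 40.5 Mb) 3 of 19 measured genes were higher and 5 lower, with a median log2 ratio of 0.10. In the next 3 Mb at higher coordinates (up to 49.5 Mb) 3 of 14 were higher and 3 lower, with a median of -0.02. Over the rest of chromosome 19, 84 of 284 were higher (29.6%) and 58 lower (20.4%), with a median of 0.20. These differences between sets were not tested.

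**Figure D3:**
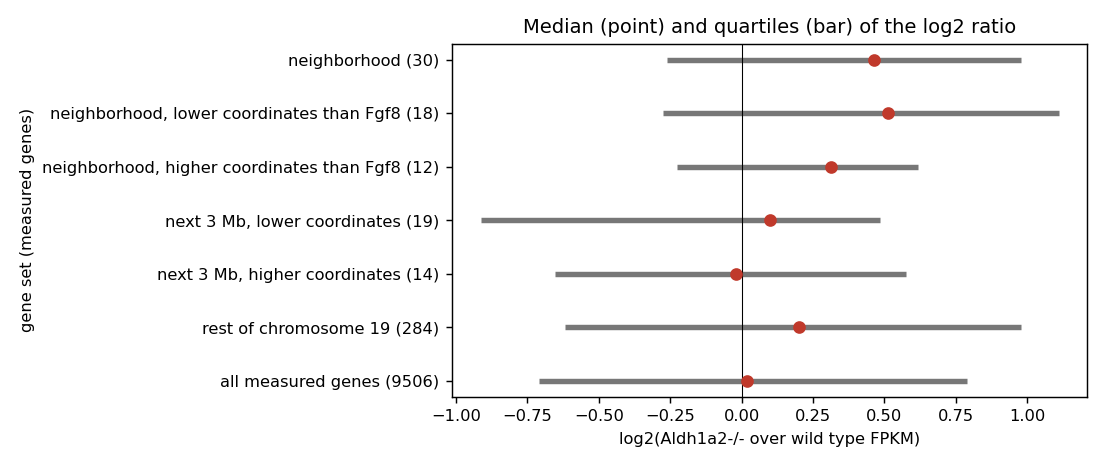
Median (point) and quartiles (bar) of the log2 ratio (mutant over wild type FPKM) in the neighborhood, its parts on either side of *Fgf8*, the adjoining stretches, the rest of chromosome 19 and all measured genes, with the number of measured genes in brackets. The neighborhood median of 0.46 stands above the 0.02 of all genes, and the quartile bars of all 7 sets overlap.

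The share of genes past a limit differed with their level. Among all measured genes the share past either limit fell from 68.0% of those with a geometric mean under 5 FPKM to 50.7% between 5 and 20 FPKM and 28.1% above 20 FPKM. In the neighborhood 9 of 14 genes between 5 and 20 FPKM were past a limit (6 higher, 3 lower). Above 20 FPKM 4 of 14 were (28.6%), all of them higher, where 16.2% of all genes were higher and 11.9% lower. Those 4 were *Slc25a28*, *Chuk*, *Scd1* and *Cuedc2*.

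**Figure D4:**
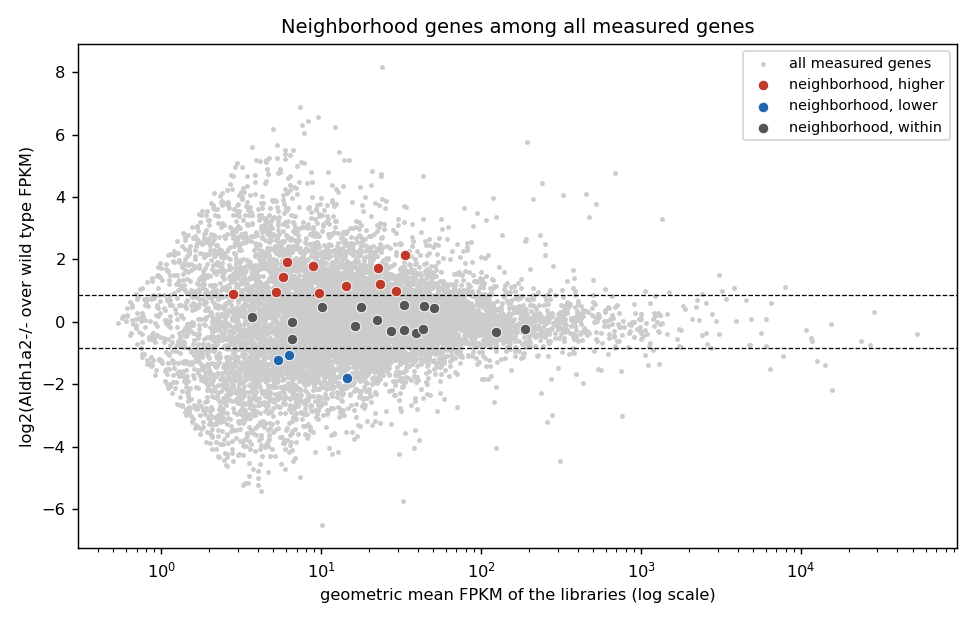
Log2 ratio (mutant over wild type FPKM) against the geometric mean FPKM (log scale) of all 9506 measured genes in grey and the 30 neighbors in red (higher), blue (lower) and dark grey (within), with dashed lines at the limits. The neighbors lie inside the spread of all genes, and no neighbor above 20 FPKM is below the lower limit.

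Enzymes of lipid metabolism were represented by the stearoyl-CoA desaturases, which put a double bond into fatty acids. Of 5 genes of fatty acid synthesis 2 were measured and 1 was higher. *Scd1* (44394450 to 44407709, minus strand) was at 20.7 FPKM in the wild-type library and 41.1 FPKM in the mutant (log2 ratio 0.99). *Scd2*, the form most used in embryo and brain, was at 138 and 111 FPKM (log2 ratio -0.32). *Scd3* was at 0 and 0.00965 FPKM and *Scd4* at 0 in both libraries. These genes are close copies of each other, so fragments may have been split between them, and the opposite signs of *Scd1* and *Scd2* are uncertain for that reason.

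Nucleolar, splicing and DNA repair genes were measured in 5 of 5 cases, with 1 higher (*Poll*) and 1 lower (*Npm3*) and a median log2 ratio of -0.0052. *Nolc1*, a nucleolar phosphoprotein and the most abundant neighbor, was at 204 and 173 FPKM. *Cwf19l1*, a protein related to a splicing factor, was at 6.56 and 6.53 FPKM. *Fam178a* (*Slf2*), which brings the SMC5/6 complex to damaged DNA, was at 27.3 and 39.4 FPKM (log2 ratio 0.53).

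Of the remaining groups few genes passed a limit. Of 4 mitochondrial genes 3 were measured: *Slc25a28* was higher, *Cox15*, needed to make heme A, was at 8.51 and 12.0 FPKM, and *Peo1* (*Twnk*), the helicase of mitochondrial DNA, at 30.1 and 24.8 FPKM. The fourth, *Sfxn3*, was at 0.176 and 0.525 FPKM. Of 6 genes of membrane traffic and the cytoskeleton 3 were measured: *Erlin1* was higher, *Gbf1*, an exchange factor of the Golgi, was at 16.9 and 15.5 FPKM, and *Actr1a*, the Arp1 subunit of dynactin, at 36.4 and 52.3 FPKM. *Hps6*, a subunit of a complex for lysosome-related organelles, was at 0.159 and 0.708 FPKM. Both genes of oxygen sensing and sugar modification, *Hif1an* at 21.9 and 22.7 FPKM and *Mgea5*, lay within the limits. *Cpn1*, a carboxypeptidase subunit, was at 7.92 and 5.46 FPKM. None of the 3 channel and transport genes was measured; *Pkd2l1* and *Kcnip2* were listed at 0 in both libraries.

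*Abcc2*, a transporter that exports conjugated compounds from liver cells, was at 0.441 FPKM in the wild-type library and 20.3 FPKM in the mutant. It was higher together with the yolk sac visceral endoderm markers given above (*Afp* 51.7 and 1122 FPKM, *Apob* 34.4 and 334 FPKM, *Ttr* 89.2 and 611 FPKM), and their part in the *Abcc2* value was not tested.

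The reverse, a mutant 0 with a wild-type value above 0.5 FPKM, was found for 3 of the same 38 neighbors, and for 11.9% of such genes over the whole series. *Bloc1s2*, a subunit of a complex for lysosome-related organelles, was at 9.77 FPKM, *Cutc*, a protein linked to copper handling, at 6.06 FPKM and the long noncoding RNA gene *Gm10768* at 0.612 FPKM in wild type. The deposited status of these genes was OK. An exact 0 may still be a failed estimate, which was not tested. At the estimated depth the wild-type values of *Bloc1s2* and *Cutc* come to about 188 and 172 fragments.

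20 of the 59 neighbors (33.9%) were listed at 0 in both libraries, against 45.3% of all genes: 12 protein-coding genes, 5 long noncoding RNA genes and all 3 microRNA genes, *Mir5114*, *Mir6405* and *Mir146b*. The protein-coding ones not named above were *Cyp2c44*, *Sec31b*, *Pdzd7* and *Elovl3*, with *Fbxl15* overlapping *Cuedc2*. The long noncoding RNA genes not named above were *1700039E22Rik*, *4930414N06Rik*, *2310034G01Rik* and *BC037704*.

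Genes that share a start region can be compared most closely. *Poll* and *Dpcd* start 19 bases apart on opposite strands, and *Poll* was higher (7.05 and 13.3 FPKM) while *Dpcd* was lower (8.17 and 3.51 FPKM). Among 615 pairs of measured genes in the table with starts within 1000 bases on opposite strands, 9.92% were past the limits in opposite directions and 11.1% in the same direction. *Cox15* and *Cutc* start 23 bases apart, and *Cox15* was at 8.51 and 12.0 FPKM while *Cutc* was at 6.06 and 0 FPKM. *Slc25a28* starts 172 bases from *BC037704*, a long noncoding RNA gene at 0 in both libraries. *Psd* and *Fbxl15*, 57 bases apart, were both at 0. Of 25 pairs of members with no other measured gene between them, 4 were both higher (16%), none was both lower and 2 were opposite (8%), against 5.83%, 4.91% and 9.92% of 9485 such pairs in the genome. A set with a larger share of higher genes (36.7% against 23.6%) also holds more such pairs. Whether adjacent genes differ together beyond that share was not tested. Neighbors were taken in order of the table's locus starts. The pairs that were both higher in that order were *Entpd7* and *Dnmbp*, *Erlin1* and *Chuk*, *Btrc* and *Poll*, and *Cuedc2* and *Tmem180*. *Cox15* and *Entpd7* share a locus entry, so their order there is arbitrary. By gene position *Cox15* lies between *Entpd7* and *Dnmbp*, and *Entpd7* instead pairs with *Slc25a28*, also higher.

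Promoter sequences from RefSeq (GRCm38.p6) were matched for 46 of the 59 members. The 250 bases before the start that the promoter table gives for each gene were searched on both strands for direct repeats of the half-site AGGTCA or its variants (AGTTCA, likewise GGGTCA, likewise GGTTCA) with spacers of 1, 2 or 5 bases. None of the 46 held one, and 115 of all 27025 promoters did (0.426%). The search allowed no mismatch to these half-sites, whereas the study's RARE table does allow mismatches. Of the *Fgf8* elements shown above, the search would have missed AGGTCTctGGGTCG and AGGGCAgAGGCCA. With that difference and so low a share over all promoters, the search cannot decide whether the 46 promoters hold RAREs as the study defines them. Single half-sites were found in 20 of 46 (43.5%), against 38.4% of all promoters, and in 4 of the 11 promoters of members past the limits. A match is a description of letters and not a site of binding, and no match says only that these letters are not in this window. The half-sites in these windows of genes past the limits are shown with up to 10 bases on each side, in capitals, on the strand of the gene. They lie on chromosome 19.
Slc25a28 (higher; chr19:43675115-43675131, minus strand): aAGTTCAgctttacgtt
Erlin1 (higher; chr19:44069915-44069940, minus strand): tctgtccgagTGACCCaccccaggag
9130011E15Rik (higher; chr19:45998597-45998622, minus strand): aatcgtggtcTGAACCcgcttcagga
Dpcd (lower; chr19:45560337-45560362, plus strand): gcagctggtgTGAACCagggactccc
Dpcd (lower; chr19:45560560-45560584, plus strand): aatacttcccGGGTCAtccggaagt

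Counted from the start in the promoter table, the half-sites stood 249 bases away for *Slc25a28*, 145 for *Erlin1*, 124 for *9130011E15Rik* and 238 and 15 for *Dpcd*. The widest annotated bodies of *Erlin1* and *9130011E15Rik* reach past that start, so for these genes the stretch lies inside the gene. The *Dpcd* stretches lie at the start region shared with *Poll*, a higher gene on the other strand without a matched promoter. The first *Dpcd* stretch lies inside the *Poll* body, and the half-site of the second lies between the starts of *Poll* and *Dpcd*. The *Dpcd* half-sites are thus not particular to the lower gene. For *Nkx2-3* and *Npm3*, the other lower genes, the bases before the start are given, without those inside the GENCODE body of *Npm3*, since they hold no half-site; capitals mark a GC box (GGGCGG on either strand), a common promoter motif found in 25 of the 46 member promoters (54.3%) and in 32.9% of all promoters.
Nkx2-3 (chr19:43612075-43612324, plus strand): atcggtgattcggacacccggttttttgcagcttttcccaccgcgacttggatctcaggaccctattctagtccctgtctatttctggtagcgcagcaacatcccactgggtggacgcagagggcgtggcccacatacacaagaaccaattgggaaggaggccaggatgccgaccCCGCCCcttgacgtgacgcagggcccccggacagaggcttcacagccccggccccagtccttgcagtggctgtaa
Npm3 (chr19:45749592-45749815, minus strand): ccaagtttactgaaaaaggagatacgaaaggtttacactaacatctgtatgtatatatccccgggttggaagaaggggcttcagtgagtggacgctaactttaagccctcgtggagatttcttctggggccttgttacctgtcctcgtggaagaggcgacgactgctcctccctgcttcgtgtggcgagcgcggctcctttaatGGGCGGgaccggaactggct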

How the data were processed

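RNA-seq of 1 wild-type and 1 *Aldh1a2*-/- E8.5 mouse trunk sample was used. The FPKM values were computed by the authors and deposited in 1 table of 24340 genes on mm10; STAR, Cufflinks and Cuffdiff appear in the submitters' notes with no version, while the study's methods name TopHat and edgeR. Labels and methods also differ on poly(A) selection. The table's columns with the authors' own fold change, test statistic, p-value and q-value were not used. The ChIP-seq data of the study were not analysed here.

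Log2 ratios had no pseudocount and were limited to genes over 0.5 FPKM in each library, with limits of -0.85 and 0.85. Genes are named if past a limit, at 0 in 1 sample and above 0.5 FPKM in the other, listed for *Fgf8* in the study's RARE table, nearest to *Fgf8* (4 on each side), in a divergent pair, or on a role list. Members and lists were chosen with earlier results of these data known. Positions are from RefSeq (GRCm38.p6), strands from RefSeq or GENCODE M21. Fragments were estimated as FPKM times the median GENCODE transcript length times the depth, which was read from the smallest FPKM steps of genes with 1 transcript. Ratios and intervals were checked on counts simulated with a known depth and a fixed transcript length. Errors in the estimated depth and lengths were not covered. Alternatives were other floors, pseudocounts, scalings, limits, status OK only, narrower windows and, added after seeing the data, other choices of members. Python 3.11.15, numpy 2.4.6, pandas 2.3.3, scipy 1.17.1 and matplotlib 3.10.9 were used. 1 marker gene is not reported here.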

Additional observations from a re-analysis of the deposited data

How the results depend on the processing

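The 3 lower and 11 higher neighbors and the median log2 ratio of 0.46 came from 1 library per genotype, so no library could be left out. No paired analysis was possible because each genotype has 1 sample. With a floor of 5 FPKM there were 1 lower and 6 higher genes and a median of 0.25, since 22 genes were left. Of all genes over that floor 17.7% were higher and 14.4% lower. With a floor of 0.5 FPKM in either library and a pseudocount of 0.5, 6 of 38 were lower, because genes at 0 entered. Of all such genes 30.9% were lower. Limits of -1 and 1 left 7 of 30 higher, where 20.4% of all genes were higher. *9130011E15Rik*, *Poll*, *Entpd7* and *Scd1*, with log2 ratios of 0.90 to 0.99, were no longer called there. The median was 0.62 on the TPM scale and 0.36 with the upper quartile, where the median of all genes was 0.18 and -0.08; the split of all genes was 27.5% higher and 18.99% lower on the TPM scale. Among genes starting from 45 Mb, 5 were higher and the median was 0.17, and within 0.5 Mb of *Fgf8* 3 were higher and the median was -0.18. Within 0.25 Mb the median was 0.68. Without the 7 genes of the study's RARE table, an alternative chosen after seeing the data, 4 were higher and the median was -0.0052, as that list holds only higher genes. Of the genes past the limits, *9130011E15Rik* lost its call with a pseudocount of 0.5, *Entpd7* and *Poll* as well with a pseudocount of 1, and *Poll* and *9130011E15Rik* with the upper quartile; no gene past a limit changed sign, while within the limits *Cwf19l1* and *Gbf1* turned positive on the TPM scale (0.15 and 0.026) and *Hif1an* negative with the upper quartile (-0.053). Putting back the 6 genes left out gave 14 higher and 4 lower, and leaving out overlapping genes 9 and 2. The estimated depth limits values under 0.5 FPKM, and differences between embryos could not be measured.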
